A study of Mus musculus with 12 samples.

Results

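Papilin (Papln) and the ADAMTS-like genes Adamtsl1, Adamtsl2, Adamtsl3, Adamtsl4, Adamtsl5 and Thsd4 were followed across 12 RNA libraries from dorsal skin wounds of diabetic mice. The 7 members were taken as a named family from 54232 gene identifiers per library, and all 7 passed the filter on low counts that left 18618 genes for testing. The family was chosen by the measured difference of Papln between strain and no-strain wounds in an earlier reading of the same counts, so the values of that comparison describe the choice and were not tested for any member.

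The mice were males of the C57BLKS/J strain carrying the db/db genotype of Lepr, the leptin receptor gene, with a labelled age of 12.5 weeks. The mutation is present in every cell and in all 3 groups, so no wound came from a mouse with a normal receptor. Each wound was a 6 mm full-thickness punch collected on day 10. A film dressing alone (Tegaderm, TD) covered 5 wounds, a patch designed to impose about 30% strain covered 4 (strain), and a patch that imposed none covered 3 (no strain). Whether 1 mouse gave more than 1 wound is not stated in the labels, so p-values measure the spread between these libraries, which may be partly technical.

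ADAMTS-like proteins are secreted glycoproteins built from the thrombospondin repeats of the ADAMTS metalloproteases but without the protease domain. Several of them bind fibrillin microfibrils, the scaffold of elastic fibres and a store of latent TGF-beta in the dermis. Papilin has a related domain order with added Kunitz-type modules, lies in basement membranes, and can inhibit a procollagen-processing ADAMTS protease.

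Total counts ran from 20354677 to 25059371 per library, so 3 counts corresponded to at most 0.147 CPM on these totals, a floor that covers counting error only. Elsewhere CPM values use library totals scaled by TMM, a correction for differences in RNA composition. Member counts ran from 34 for Adamtsl2 in a no-strain library to 1929 for Adamtsl4 in a TD library. Marker lists were read beside the tissue label. All 10 fibroblast and all 10 keratinocyte markers were tested, and no marker of any list was at 0 in all libraries. All 12 skeletal muscle and all 10 adipocyte markers were tested too, so presence alone cannot decide the tissue. The 10 fibroblast markers, which include Col1a1 and Pdgfra, summed to 43173 to 68159 CPM in TD, 43987 to 75019 CPM under strain and 55259 to 69116 CPM without strain. Sample titles carry numbers of 1 to 6 for TD and 7 to 15 for patched wounds. What these numbers record is not given, and it cannot be told apart from the patch. Each title also has an L or an R, called the title letter here, which is not explained either. In TD, replicate 1 has L and replicates 2 to 5 have R. Among patched wounds, strain replicate 3 and no-strain replicate 1 have R and the rest have L. The letter is thus unevenly spread between TD and patched wounds. Fits with it as a covariate separate letter and patch only in part.

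Papln, Adamtsl4 and Adamtsl5 were the members lower in the patch libraries past the test threshold. The 250 bases before their RefSeq starts are shown because these are the members called lower there. Capitals mark matches, on either strand, to 5 short motifs: a TATA box (TATAAA), a GC box (GGGCGG), an AP-1 site (TGANTCA), a TEAD site (GGAATG) and a SMAD box (GTCTG). No match overlaps another within these windows. All are given 5′ to 3′ on the gene's strand, from the GRCm38.p6 build. The RefSeq start used for Adamtsl5 lies just outside the gene model that gave its coordinates.
Papln, chr12:83763384-83763633, plus strand: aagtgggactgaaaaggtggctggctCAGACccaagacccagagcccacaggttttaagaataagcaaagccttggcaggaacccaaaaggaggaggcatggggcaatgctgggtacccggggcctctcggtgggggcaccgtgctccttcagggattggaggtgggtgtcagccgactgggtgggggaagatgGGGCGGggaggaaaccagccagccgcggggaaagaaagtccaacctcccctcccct
Adamtsl4, chr3:95687918-95688167, minus strand: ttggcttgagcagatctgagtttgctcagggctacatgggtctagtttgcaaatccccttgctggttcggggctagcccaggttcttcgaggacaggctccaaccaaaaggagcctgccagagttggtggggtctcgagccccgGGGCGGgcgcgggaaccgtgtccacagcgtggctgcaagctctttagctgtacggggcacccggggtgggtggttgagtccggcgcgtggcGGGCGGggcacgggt
Adamtsl5, chr10:80348449-80348698, minus strand: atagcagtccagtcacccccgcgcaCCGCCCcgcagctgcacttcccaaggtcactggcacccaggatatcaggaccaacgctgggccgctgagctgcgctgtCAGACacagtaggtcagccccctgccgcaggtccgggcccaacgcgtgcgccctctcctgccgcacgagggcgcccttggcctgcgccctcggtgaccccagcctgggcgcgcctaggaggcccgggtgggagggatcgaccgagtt

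Each of the 3 windows held at least 1 GC box: 2 matches for Adamtsl4 and 1 each for Papln and Adamtsl5. Among 32841 promoter windows of the same length in that table, 32.7% held a GC box. A SMAD box stood in the windows of Papln and Adamtsl5 and in 42.2% of all windows. The TATA box (12.4% of all windows), AP-1 site (6.75%) and TEAD site (12.6%) had no match in the 3 windows, which says only that those letters are not there. The windows of Adamtsl5, Adamtsl4 and Papln were 70.8%, 64.4% and 61.6% G or C, against a median of 52.4% over all windows. Of the other members with a window in the table, Adamtsl2 had a TATA box 30 to 25 bases before its start. GC boxes were not particular to the called members: Adamtsl3 had 4 matches, Adamtsl2 had 1, and a Thsd4 window had 1. A SMAD box also stood in the Adamtsl2 window and in that Thsd4 window. The G or C content was 80% for Adamtsl3, 62.8% for Adamtsl2, and 52.8% and 54.4% for the Thsd4 windows.

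Levels were first set in order per length of exon, the scale on which genes can be compared. The members fell into an abundant pair, an intermediate gene and 4 low genes. In TD, Adamtsl4 (14.4 CPM per kilobase) and Adamtsl5 (14.1) led, and their libraries overlapped. Adamtsl1, known as punctin, followed at 3.56 CPM per kilobase and did not overlap either neighbour. Papln came next at 1.60 CPM per kilobase, above Adamtsl3 at 0.776, again without overlap. Adamtsl3 overlapped Thsd4 (0.522), which in turn overlapped Adamtsl2 (0.418).

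The order was not the same under the patches. Adamtsl5 stood first in the strain group at 10.2 CPM per kilobase and in the no-strain group at 8.62, with Adamtsl4 second at 7.25 and 5.98. Those 2 genes overlapped under strain and did not overlap without strain. Papln held the fourth place under strain, at 0.878 CPM per kilobase, where it overlapped Adamtsl3 at 0.618. In the no-strain group it was sixth of 7 at 0.400 CPM per kilobase, and overlapped its neighbours Adamtsl2 (0.471) and Thsd4 (0.334).

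**Figure D1:**
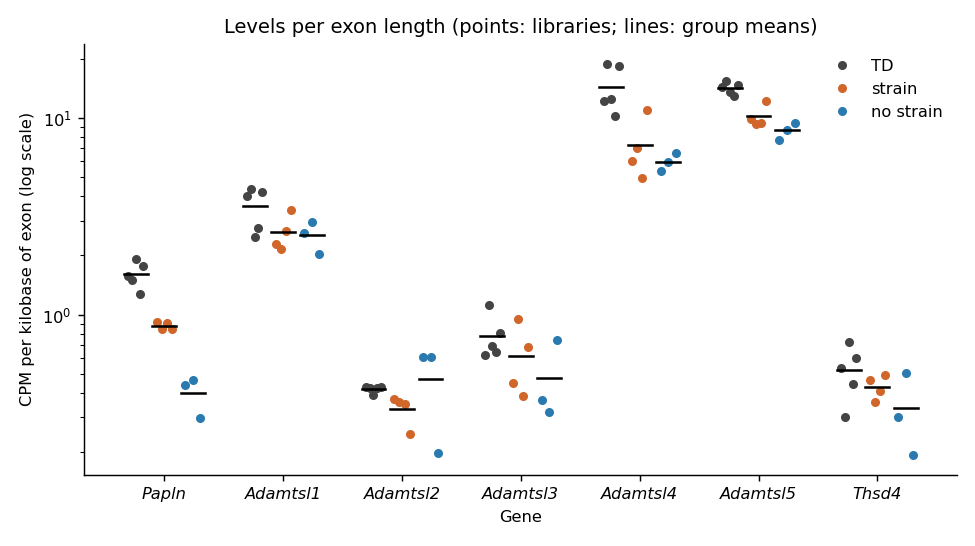
Level of each member per kilobase of exon on a log axis, one point per library and a line at each group mean. Adamtsl4 and Adamtsl5 lie highest in each group, and Papln drops from 1.60 in TD to 0.878 under strain and 0.400 without strain.

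Summed over the family, the level per kilobase was 35.4 ± 5.74 (SD, n = 5) in TD, 22.4 ± 4.44 (SD, n = 4) under strain and 18.8 ± 1.23 (SD, n = 3) without strain. Most of that sum came from the abundant pair. Adamtsl4 made up 40.1% ± 4.60 (SD, n = 5) of it in TD, 31.7% ± 5.24 (SD, n = 4) under strain and 31.7% ± 1.96 (SD, n = 3) without strain. The share of Adamtsl5 was 40.4% ± 3.96 (SD, n = 5), 46.1% ± 3.40 (SD, n = 4) and 45.8% ± 2.18 (SD, n = 3) in the same order. The share of Papln was 4.60% ± 0.883 (SD, n = 5) in TD, 4.04% ± 0.810 (SD, n = 4) under strain and 2.14% ± 0.544 (SD, n = 3) without strain.

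Papln (ENSMUSG00000021223, chromosome 12, 83763634 to 83792382, GRCm38, plus strand) encodes the basement membrane glycoprotein papilin. In TD it was at 8.80, 8.42, 10.8, 7.15 and 9.95 CPM in replicates 1 to 5. Under strain the 4 libraries were at 5.17, 4.77, 5.10 and 4.74 CPM. Without strain the 3 libraries were at 2.48, 2.62 and 1.67 CPM. Every TD library lay above every strain library, and each strain library above each no-strain library; 0.36% of the 18618 genes tested had this order without overlap at either step. That order includes the difference for which Papln was chosen, so nothing is read from it.

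The difference between strain and no strain, which picked the gene, was 1.13 on the log2 scale (standard error 0.182), or 2.19-fold higher under strain. It is given as a description. The test that does not use this difference sets all 7 patch libraries against TD, with the patch groups weighted by their library numbers. It shares the estimate of spread with that difference, so it is not wholly independent of the choice. Papln fell in it from 9.03 ± 1.42 CPM (SD, n = 5) to a patch mean of 3.79 CPM, a log2 fold change of -1.35 (standard error 0.130, edgeR quasi-likelihood test, adjusted p = 0.000302). All 7 patch libraries were below the TD mean. Set against TD one by one, strain differed by -0.87 and no strain by -1.998 on the log2 scale, with standard errors of 0.151 and 0.179, again as a description because the same libraries chose the gene. Within groups the spread was widest without strain, where the coefficient of variation was 22.6%, against 15.8% in TD and 4.43% under strain. Counts were low, at 177 to 272 in TD, 99 to 131 under strain and 36 to 61 without strain. Counting error enters these coefficients, and whether the groups differ in spread was not tested.

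**Figure D2:**
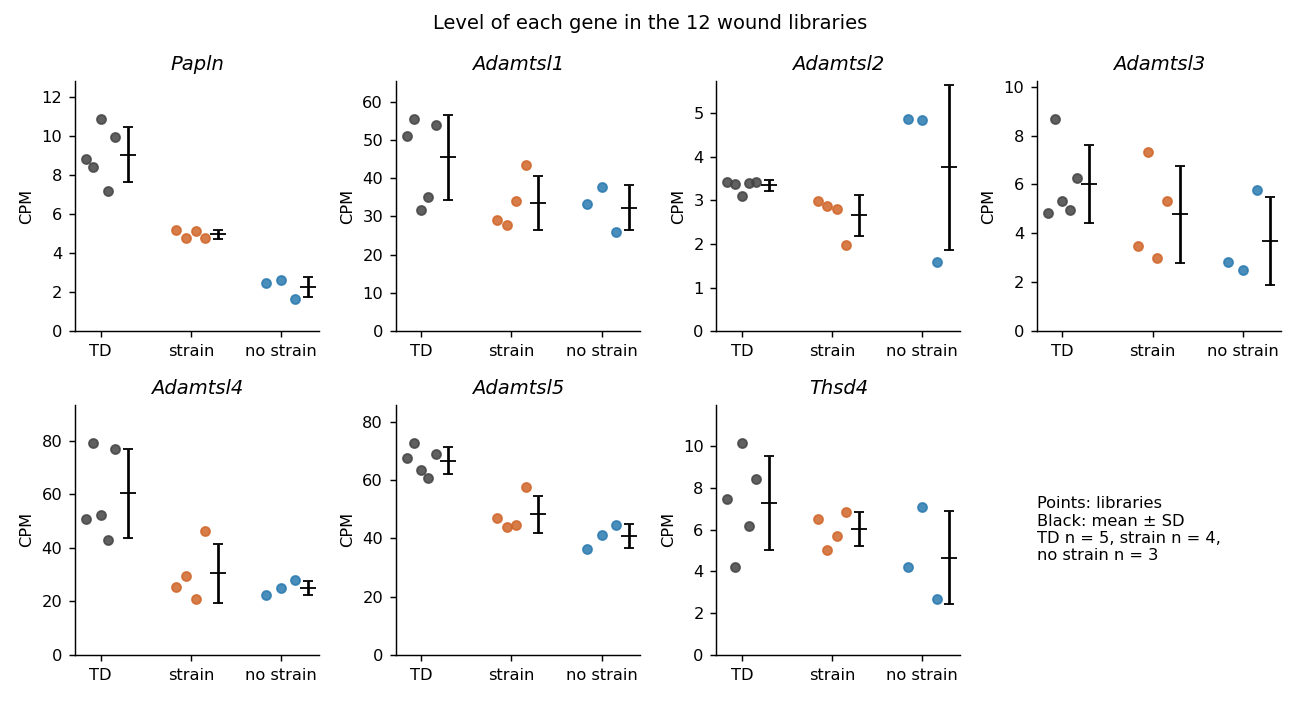
CPM of each member in every library, by group, with the mean and SD beside the points. The 3 Papln groups do not overlap; Adamtsl5 lies between 60.8 and 72.8 CPM in TD and between 36.4 and 57.8 CPM in the patch libraries; Adamtsl2 is tight in TD and spread from 1.58 to 4.86 CPM without strain.

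Adamtsl4 (ENSMUSG00000015850, chromosome 3, 95676201 to 95687917, minus strand) encodes a fibrillin-binding protein whose loss causes dislocation of the eye lens in humans. Its TD libraries were at 50.8, 79.2, 52.2, 42.8 and 76.8 CPM. Strain libraries were at 25.3, 29.5, 20.8 and 46.3 CPM, and no-strain libraries at 22.5, 24.9 and 27.9 CPM. Strain replicate 4 stood above TD replicate 4, so strain and TD overlapped through that one pair of libraries, while no strain lay below TD throughout. Adamtsl4 fell by 0.99 on the log2 scale under strain (standard error 0.245, edgeR adjusted p = 0.0267) and by 1.27 without strain (standard error 0.274, adjusted p = 0.0118). Over all patch libraries it fell by 1.11 (standard error 0.208, edgeR adjusted p = 0.00444). The strain call was lost on leaving out TD replicate 2 (edgeR adjusted p = 0.0552), strain replicate 1 (0.0635) or strain replicate 2 (0.0753), and the no-strain call on leaving out no-strain replicate 1 (0.0510).

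Adamtsl5 (ENSMUSG00000043822, chromosome 10, 80339110 to 80348412, minus strand) encodes a microfibril-associated protein that is also known as an autoantigen in psoriasis. TD libraries were at 67.5, 72.8, 63.6, 60.8 and 69.0 CPM, a coefficient of variation of 7.01%. Under strain the values were 46.9, 44.0, 44.5 and 57.8 CPM, and without strain 36.4, 41.2 and 44.6 CPM. All patch libraries lay below all TD libraries, an arrangement found in this direction for 5.27% of genes tested. The gene fell by 0.47 on the log2 scale under strain (standard error 0.0930, edgeR adjusted p = 0.0123) and by 0.71 without strain (standard error 0.103, adjusted p = 0.00264). Over all patch libraries it fell by 0.57 (standard error 0.0799, edgeR adjusted p = 0.00139). Whether its change differed from that of Adamtsl4 was not tested.

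The remaining 4 members did not pass the threshold in any of the 3 comparisons with TD. Adamtsl1 (ENSMUSG00000066113, chromosome 4, 85514172 to 86428385, plus strand) ranged from 31.8 to 55.4 CPM in TD with a median of 51.1, from 27.6 to 43.5 CPM under strain and from 25.9 to 37.6 CPM without strain. Its TD libraries split into 3 high and 2 low ones, and the 2 low ones were within the range of the patch libraries. The log2 fold change over all patch libraries was -0.46 (standard error 0.172, edgeR adjusted p = 0.0721). It passed without TD replicate 3 (adjusted p = 0.0383) or without strain replicate 4 (0.0389), and in DESeq2 with all libraries (0.0395).

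Adamtsl3 (ENSMUSG00000070469, chromosome 7, 82335694 to 82614450, plus strand), the second punctin gene, had 4.81 to 8.67 CPM in TD, 3.00 to 7.34 CPM under strain and 2.49 to 5.76 CPM without strain. The groups overlapped, and the log2 fold change over all patch libraries was -0.49 (standard error 0.275, edgeR adjusted p = 0.219). Thsd4 (ENSMUSG00000032289, chromosome 9, 59966931 to 60522046, minus strand), also called Adamtsl6, encodes a protein that promotes fibrillin microfibril assembly. It ranged from 4.23 to 10.2 CPM in TD, 5.04 to 6.85 CPM under strain and 2.69 to 7.08 CPM without strain, with a log2 fold change over all patch libraries of -0.43 (standard error 0.245, edgeR adjusted p = 0.223). Against TD, the no-strain group alone passed once no-strain replicate 2 was left out (-1.08, edgeR adjusted p = 0.0462; -0.64 and 0.180 with it).

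Adamtsl2 (ENSMUSG00000036040, chromosome 2, 27079379 to 27108981, plus strand) encodes a protein that binds fibrillin and a latent TGF-beta binding protein and is mutated in geleophysic dysplasia. Its 5 TD libraries lay between 3.11 and 3.42 CPM. Strain libraries were at 2.98, 2.88, 2.80 and 1.97 CPM, all below TD. No-strain libraries were at 4.86, 4.85 and 1.58 CPM: 2 stood above and 1 below every other library in the study. The log2 difference from TD was -0.33 for strain (standard error 0.273, edgeR adjusted p = 0.456) and 0.17 for no strain (standard error 0.290, adjusted p = 0.718), and the latter changed sign when no-strain replicate 1 or 2 was left out.

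Counted together, 3 of 7 members were called lower and 0 higher for all patch libraries against TD, where 23.8% of all genes tested were called in either direction and 11.9% lower. The median log2 fold change of the 7 members was -0.49, and that of all genes was 0.01. For strain against TD, 3 members were called lower (Papln, Adamtsl4 and Adamtsl5), against 12.6% of genes in either direction and 6.41% lower. The median of all 7 members, Papln included, was -0.44. In the same comparison 3 members lay wholly below TD (Papln, Adamtsl2 and Adamtsl5), as did 7.15% of genes. Adamtsl2, at most 2.98 CPM under strain and at least 3.11 in TD, was not called there (edgeR adjusted p = 0.456). For no strain against TD the same 3 members were called lower, against 17.8% of genes in either direction and 8.4% lower. The median, again with Papln, was -0.70. Papln, Adamtsl4 and Adamtsl5 lay wholly below TD there, as did 12.5% of genes. These comparisons share the 5 TD libraries. In the last 2, Papln is a description, so only Adamtsl4 and Adamtsl5 of the called members stand beside the shares of all genes. The comparison of all patch libraries does not use the difference that chose Papln but shares its estimate of spread. Between strain and no strain, 0% of genes were called (5.61% had an unadjusted edgeR p under 0.05, and DESeq2 called 0.177%). There, 1 member, Papln, had libraries that did not overlap, against 5.62% of all genes. Papln was chosen on this difference, so nothing is read from that. The other differences of strain minus no strain, on the log2 scale and each a description, were 0.05 for Adamtsl1 (standard error 0.227), -0.50 for Adamtsl2 (0.307), 0.37 for Adamtsl3 (0.369), 0.28 for Adamtsl4 (0.277), 0.25 for Adamtsl5 (0.106) and 0.36 for Thsd4 (0.328). Single libraries carried much of these values. Without strain replicate 4, Adamtsl4 was at 0.0044, Adamtsl5 at 0.15 and Adamtsl1 at -0.09. Without no-strain replicate 3, Adamtsl2 was at -0.87, Adamtsl3 at 0.84 and Thsd4 at 0.09. Over all libraries left out in turn, Adamtsl1 ran from -0.09 to 0.18, Adamtsl2 from -0.87 to -0.28, Adamtsl3 from 0.08 (without strain replicate 2) to 0.84, and Thsd4 from 0.09 to 0.79 (without no-strain replicate 2).

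**Figure D3:**
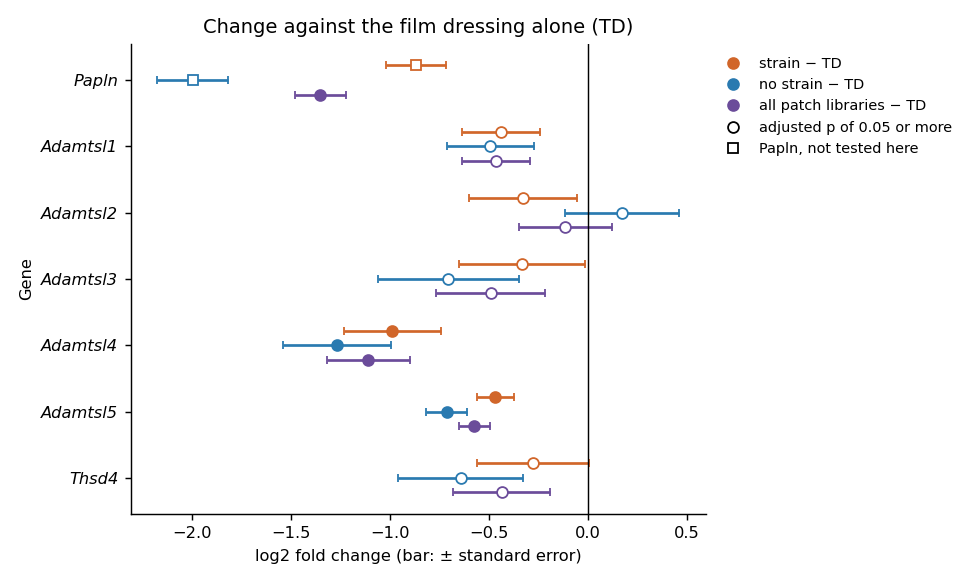
Log2 fold change of each member against TD with its standard error. Filled circles passed an adjusted p of 0.05 and open circles did not. Open squares mark the Papln values for strain and for no strain, which hold the difference that chose it. Adamtsl4 and Adamtsl5 are filled in each comparison, and Adamtsl2 lies on both sides of 0.

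Wound libraries hold many cell types, and in bulk tissue fewer cells of a type and less RNA per cell cannot be told apart. Adipocyte markers moved with the patch: 9 of 10 were called lower over all patch libraries, and their summed level was 2925 to 5860 CPM in TD, 1790 to 2578 CPM under strain and 1688 to 2026 CPM without strain. Skeletal muscle markers were called lower for 7 of 12, with sums of 6102 to 15232 CPM in TD, 2969 to 5822 CPM under strain and 4467 to 9592 CPM without strain. Neutrophil markers were called higher for 9 of 9, with sums of 532 to 1718, 1008 to 8843 and 2474 to 5374 CPM in the same order, and endothelial markers for 7 of 8. Of the fibroblast markers, 1 of 10 was called lower and 0 higher. Macrophage markers were called higher for 3 of 10, and Schwann cell markers lower for 3 of 6. Over all 18618 genes tested, 2224 were called higher and 2214 (11.9%) lower in the same comparison. The part of these cell types in the members' changes was not tested, and fits with a list as covariate are given next.

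The adipocyte list mean ran from 6.47 to 7.88 log2 CPM in TD, 5.73 to 6.45 under strain and 4.99 to 5.62 without strain. TD and patch libraries thus did not overlap. The muscle list mean ran from 8.37 to 9.71 in TD, 7.38 to 8.26 under strain and 7.94 to 8.81 without strain. There TD and strain did not overlap. Fits with either list therefore separate list and patch only in part. With the adipocyte list mean as a covariate in the fit, Papln over all patch libraries was at -1.17 (standard error 0.262) and was no longer called (edgeR adjusted p = 0.0850). In the same fit Adamtsl4 was at -2.12 (standard error 0.287, adjusted p = 0.0228) and Adamtsl5 at -0.82 (standard error 0.154, adjusted p = 0.0442). With the skeletal muscle list in its place, Papln was at -1.47 (edgeR adjusted p = 0.0368), while Adamtsl4 at -1.51 (adjusted p = 0.101) and Adamtsl5 at -0.64 (adjusted p = 0.0979) were not called. For strain against TD, Adamtsl5 was at -0.66 with the adipocyte list (standard error 0.135, edgeR adjusted p = 0.0660) and at -0.56 with the muscle list (standard error 0.176, adjusted p = 0.434), further from 0 than without a covariate but not called. For no strain it was at -1.04 with the adipocyte list (standard error 0.199, edgeR adjusted p = 0.0538). Adamtsl4 under strain was at -1.51 with the muscle list, where its standard error rose to 0.422 (edgeR adjusted p = 0.362). Over all genes the calls for all patch libraries went from 4438 to 119 with the adipocyte list and 68 with the muscle list.

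Within groups the called members differed in how they followed the marker lists. After group means were removed, Pearson's r with the adipocyte list over the 12 libraries was 0.29 for Papln, -0.78 for Adamtsl4 and -0.52 for Adamtsl5. With the fibroblast list it was -0.23 for Papln, 0.69 for Adamtsl4 and 0.83 for Adamtsl5, and with the keratinocyte list 0.60, -0.56 and -0.76. With the endothelial list, whose markers were called higher under the patches, it was -0.23 for Papln, 0.71 for Adamtsl4 and 0.81 for Adamtsl5. For the neutrophil list r was -0.52, 0.37 and 0.39 in the same order, and for the macrophage list -0.25, 0.49 and 0.16. These values are descriptions over 12 libraries that share their scaling.

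**Figure D4:**
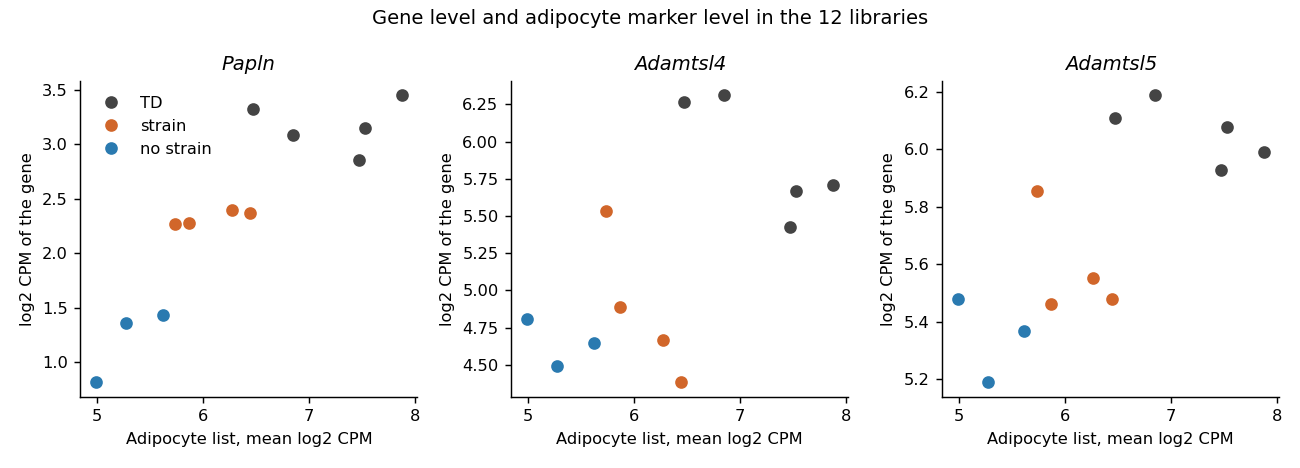
Log2 CPM of the 3 called members against the mean log2 CPM of the 10 adipocyte markers, one point per library. TD libraries lie at the right, and within a group Adamtsl4 tends to be higher where the adipocyte list is lower (within-group r of -0.78) while Papln does not (0.29).

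The members did not vary as one unit. Adamtsl4 and Adamtsl5 had the closest patterns of any pair, with a Pearson r of 0.94 over the log2 CPM of the 12 libraries and 0.84 after group means were removed. Papln had an r of 0.84 with Adamtsl5 and 0.75 with Adamtsl4 over all libraries, but -0.24 and -0.04 within groups. Within groups Papln was closest to Thsd4 (0.77) and Adamtsl2 (0.66).

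Among all genes tested, those with patterns most like Papln were Mill2 (r = 0.98), the histone methyltransferase gene Ezh1 (0.96), the semaphorin receptor gene Plxna3 (0.96), Acss3 (0.95) and Tmem80 (0.95), over 12 libraries. Mill2 averaged 15.9 CPM in TD, 10.1 CPM under strain and 6.80 CPM without strain, and its within-group r with Papln was 0.84. The within-group r was 0.79 for Ezh1, 0.81 for Plxna3, 0.30 for Acss3 and 0.50 for Tmem80. For Adamtsl4 the nearest genes were Scara5, a ferritin receptor gene (0.97), Cadm3 (0.96) and Add3 (0.96). Those nearest to Adamtsl5 were Phldb1 (0.98), Gm26705 (0.98) and Wnt11 (0.98). The genes nearest to the other members were Cldn11 (0.93), Gna14 (0.92) and Ccdc28b (0.92) for Adamtsl1, Gm17655 (0.84), Gm13409 (0.83) and Calml3 (0.83) for Adamtsl2, Rbpj (0.91), Gprc5b (0.90) and Dagla (0.88) for Adamtsl3, and Hdac11 (0.91), Tmem255b (0.91) and Hoxa7 (0.91) for Thsd4. Some of these genes were at low levels. Gm26705 averaged 0.678 CPM in TD, 0.228 under strain and 0.135 without strain, the last near the floor. Cldn11 averaged 0.645, 0.423 and 0.371 CPM and Gm13409 0.344, 0.305 and 0.396 CPM in the same order.

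The proteases that share the family's ancillary domains were read next. Of 19 ADAMTS proteases, all tested, 3 were called higher and 3 lower over all patch libraries, against 23.8% of all genes in either direction and 11.9% lower, and the median log2 fold change was 0.08. The 6 calls became 1 with the title letter as a covariate and 0 with either the muscle or the adipocyte markers. Over all genes the 4438 calls became 2474 with the title letter, 68 with the muscle list and 119 with the adipocyte list. These counts are the background for the lists below as well. Adamts7, with the smallest p, averaged 26.0 ± 5.15 CPM (SD, n = 5) with TD, 46.2 ± 8.76 (SD, n = 4) under strain and 61.1 ± 23.7 (SD, n = 3) without strain, and rose by 1.00 on the log2 scale over all patch libraries (standard error 0.206, edgeR adjusted p = 0.00662). Adamts1, an aggrecan- and versican-cleaving protease, rose by 0.41 (standard error 0.104, adjusted p = 0.0157). Adamts10, which binds fibrillin, fell by 0.30 (standard error 0.0754, adjusted p = 0.0149) and Adamts18 by 1.04 (standard error 0.307, adjusted p = 0.0304). The other called members of the list, named after their values were seen, were Adamts9 (0.39, higher) and Adamts8 (-0.78, lower). For strain against TD 1 protease was called higher and 1 lower, and for no strain 3 and 2.

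Of 19 microfibril and elastic fibre genes, 0 were called higher and 3 lower over all patch libraries, against 23.8% of all genes in either direction and 11.9% lower, with a median log2 fold change of -0.04. The 3 calls became 5 without strain replicate 4 and in DESeq2, and 1 with either marker list as a covariate. Ltbp4, a latent TGF-beta binding protein gene of elastic fibres, fell from 106 ± 8.91 CPM (SD, n = 5) to 68.1 ± 12.0 (SD, n = 4) under strain and 62.8 ± 4.08 (SD, n = 3) without strain, or by 0.69 on the log2 scale over all patch libraries (standard error 0.0973, edgeR adjusted p = 0.00139). Ltbp3 fell by 0.40 (standard error 0.0780, adjusted p = 0.00485), and the third gene, named after its values were seen, was Efemp1 (-1.28). Neither Fbn1 nor Fbn2, the fibrillin genes of the list, was called. Counts for strain and no strain against TD were 0 higher and 2 lower, and 1 higher and 3 lower.

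Of 16 TGF-beta genes, 3 were called higher and 1 lower over all patch libraries, against 23.8% of all genes in either direction, and the median log2 fold change was 0.04. The 4 calls became 0 with either marker list as a covariate. The receptor gene Tgfbr1 rose by 0.32 (standard error 0.0623, edgeR adjusted p = 0.00485) and Tgfbi, a matrix gene induced by TGF-beta, by 0.45 (standard error 0.0932, adjusted p = 0.00634). The ligand gene Tgfb3 fell from 54.7 ± 9.67 CPM (SD, n = 5) in TD to 30.1 ± 7.69 (SD, n = 4) under strain and 37.9 ± 5.18 (SD, n = 3) without strain, or by 0.72 on the log2 scale over all patch libraries (standard error 0.153, adjusted p = 0.00770). Skil (0.37), named after its values were seen, was the other gene called higher. For strain against TD the counts were 1 higher and 1 lower, and for no strain 3 and 0.

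Papilin's own compartment was read from 16 basement membrane genes, of which 2 were called higher and 6 lower over all patch libraries, against 23.8% of all genes in either direction and 11.9% lower, with a median log2 fold change of -0.26. The 8 calls became 5 with the title letter and 3 with either marker list as a covariate. The widespread type IV collagen genes Col4a2 and Col4a1 rose by 0.46 (standard error 0.115, edgeR adjusted p = 0.0159) and 0.45 (standard error 0.128, adjusted p = 0.0275). Lamb2, a laminin beta chain gene, fell by 0.80 (standard error 0.0915, adjusted p = 0.000594), and Col4a5, a type IV collagen gene with a narrower distribution, by 1.07 (standard error 0.131, adjusted p = 0.000809). For strain against TD 0 were called higher and 5 lower, and for no strain 2 and 5. The 4 enzymes that add sugars to thrombospondin repeats, Pofut2, B3glct, Dpy19l1 and Dpy19l3, gave 0 edgeR calls in each comparison with TD, 0 at an unadjusted p under 0.05 and 0 in DESeq2. Dpy19l1, with the smallest p, had a log2 fold change of 0.13 (standard error 0.0886, edgeR adjusted p = 0.294).

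The calls on the 3 lower members over all patch libraries were compared across 21 alternative fits. Papln, Adamtsl4 and Adamtsl5 each kept the call in 20 of these, and their values were below 0 in all 21. The fits share most libraries, so they are not independent of each other. The fit with equal weights for the patch groups (Papln at -1.43) also uses the difference that chose Papln. The log2 fold change without any one library ran from -1.45 to -1.19 for Papln, from -1.26 to -0.996 for Adamtsl4 and from -0.64 to -0.53 for Adamtsl5.

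**Figure D5:**
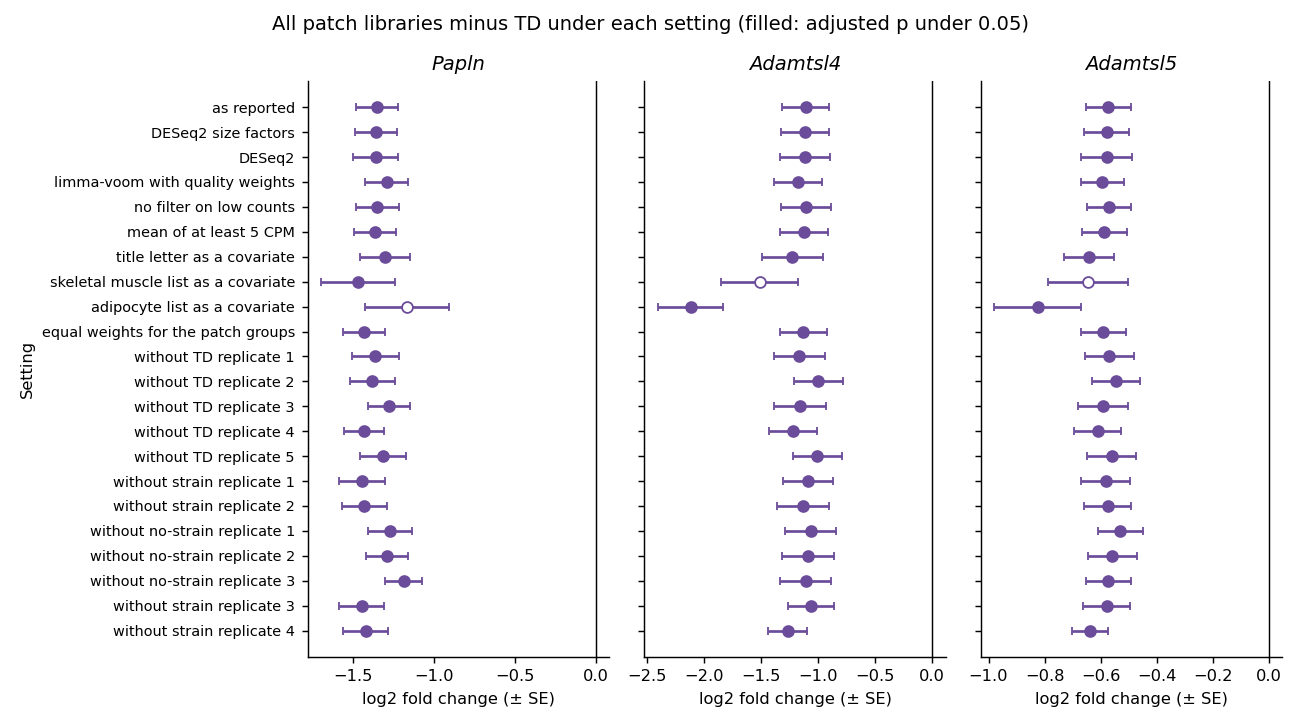
Log2 fold change (with standard error) of Papln, Adamtsl4 and Adamtsl5 for all patch libraries minus TD under the reported fit and 21 alternatives; filled points have an adjusted p under 0.05. Papln is open with the adipocyte covariate, and Adamtsl4 and Adamtsl5 are open with the skeletal muscle covariate.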

How the data were processed

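Libraries were poly(A) RNA from 12 wounds. The deposited files, 1 for each library, hold raw counts by Ensembl identifier, as their headers and whole-number values show. The submitters' processing notes name STAR, featureCounts and the GRCm38 build; strand setting, annotation release and the handling of reads that match several genes are not given in the sources used here. Of 54232 identifiers, 54079 matched a symbol in GENCODE M21 (GRCm38), which also gave coordinates and exon lengths; no member shared exon bases with another gene there. Promoter windows came from RefSeq, which held 6 of the 7 members.

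Genes were kept by filterByExpr (minimum count 10, minimum total 15) and scaled by TMM in edgeR 4.0.16 (R 4.3.3). All 12 libraries entered 1 robust quasi-likelihood fit, with Benjamini-Hochberg adjustment over 18618 genes and a threshold of 0.05. Log2 CPM used a prior count of 2, and each standard error is the absolute log2 fold change over the root of its F statistic. CPM per kilobase divides CPM by union exon length. The fit was tested on simulated counts. Alternatives were DESeq2 1.42.0, limma 3.58.1 with quality weights, DESeq2 size factors, other filters, and the title letter or a marker list as a covariate. Further ones were only the groups compared, equal weights for the patch groups, and leaving out each library.

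The members and lists were chosen with earlier results of these data known. Named genes were the 7 members, up to 2 higher and 2 lower genes of each list with the smallest p over all patch libraries (the gene with the smallest p where none passed), and the genes with the highest Pearson r with each member, 5 for Papln and 3 for each other. A planned description of protein sequences was not run.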

Additional observations from a re-analysis of the deposited data

Results flagged for a closer look

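Of 14 sets of values screened (7 members in the TD and strain groups), 2 were flagged, both of Adamtsl2, where chance flags about 1 in 20, or 0.7 here. A flag means that the gap to the nearest library was large against the range of that group. Its lowest TD library, replicate 3, was at a log2 CPM of 1.68 against 1.79 in the nearest TD library. The range was narrow there: TD counts ran from 78 to 84, and replicates 3 and 5 both had 78. Its lowest strain library, replicate 4, was at 1.04 against 1.53 in the nearest strain library. The no-strain group, with 3 libraries, was not screened.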

How the results depend on the processing

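With the mean of the muscle markers in the fit, the number of members called went from 3 to 0 for strain against TD and to 1 for all patch libraries against TD. With the adipocyte list it went from 3 to 1 for strain and to 1 for no strain against TD. The member counts here and below include Papln, which for strain and no strain against TD is a description. Calls over all genes fell in the same fits. For strain against TD they went from 2349 to 1 with the muscle list and to 68 with the adipocyte list. For no strain they went from 3305 to 83 with the adipocyte list, and for all patch libraries from 4438 to 68 with the muscle list. Neither list mean overlapped between TD and strain, so these fits separate list and patch only in part. The cause was not tested. Pathway list genes called over all patch libraries went from 21 to 12 with the title letter, 4 with the muscle list and 4 with the adipocyte list as a covariate. All genes called there went from 4438 to 2474, 68 and 119 in the same order. Without any one library, the members called ran from 2 to 3 for strain, 2 to 4 for no strain and 3 to 4 for all patch libraries, and pathway list genes from 17 to 24. Over all genes these fits called 882 to 2458 for strain, 1505 to 3415 for no strain and 3056 to 4570 for all patch libraries. The difference between strain and no strain in Papln ran from 0.96 to 1.25. Signs changed for members that were not called: Adamtsl2 for no strain against TD was -0.10 with the muscle list, -0.05 without no-strain replicate 1 and from -0.0577 to 0.538 over all libraries left out in turn, and 0.26 for all patch libraries with the adipocyte list; Thsd4 with the adipocyte list was 0.18 for strain, 0.0895 for no strain and 0.14 for all patch libraries. Adamtsl1 for strain against no strain, which was not tested, was -0.18 with the muscle list, -0.09 without strain replicate 4 and -0.08 without no-strain replicate 3. Adamtsl4 for strain against TD was also lost without a filter on low counts (-0.99, adjusted p = 0.0685) and with the title letter (-1.12, adjusted p = 0.0638). All patch libraries against TD already use every group, so the fit on only the groups compared gave it no separate value, and Adamtsl2 has none at a mean of at least 5 CPM. No paired analysis was possible because the labels number no replicates within groups: the replicate numbers used here follow sample order, each title number occurs once, and the title letter does not pair single libraries.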
